A study of Rattus norvegicus with 4 samples.

Results

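Non-T cells of 2 perfused rat livers were compared, 1 perfused with IL-10 and TGF-β added (the library named NEVLPcty) and 1 without (NEVLP2). Barcodes were kept with at least 200 genes, at least 500 UMIs (unique molecular identifiers), at most 20% mitochondrial UMIs and 0 UMIs of Cd3e, Cd3d and Cd3g, the CD3 chains of T cells. They were sorted into 6 groups by 1 marker each: Clec4f for Kupffer cells, Cd79b for B cells, Ncr1 for NK cells, Flt3 for dendritic cells, Stab2 for endothelial cells and Colec11 for stellate cells. Cd79a was intended for B cells, but it is not among the features under that symbol and its RefSeq synonym had a UMI in 0 barcodes of both libraries, so Cd79b was taken after this was seen. A barcode with markers of 2 or more groups was left out (467 in NEVLP2 and 1488 in NEVLPcty). The 6 groups hold 7519 barcodes, 2848 from NEVLP2 and 4671 from NEVLPcty, out of 9580 and 11392 CD3-negative barcodes in these libraries and 37529 barcodes deposited in all 4 libraries.

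Both livers came from Lewis rats and were perfused for 4 h at 37 °C. In both, the perfusate contained leukoreduced Lewis red cells (30 mL), human albumin at 1%, insulin (1 mg), hydrocortisone (1.25 mg), heparin and papaverine, so both libraries carry a glucocorticoid. That the added agents in NEVLPcty were IL-10 and TGF-β is read from the series description, and the digit in NEVLP2 is not explained by the labels. A naive liver and a liver stored for 4 h at 4 °C (CS) are used here for context. Each condition is 1 library, so there is no replicate and no test, and a difference between libraries cannot be told apart from a difference between animals or preparations.

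IL-10 binds a receptor built from Il10ra and Il10rb and signals through STAT3, which in macrophages induces Socs3, Bcl3 and Il1rn and restrains cytokine and chemokine genes. TGF-β binds Tgfbr1 and Tgfbr2 and signals through SMAD2, SMAD3 and SMAD4. Its targets Smad7, Skil and Pmepa1 are feedback inhibitors of the same pathway and are induced in many cell types, whereas Ctgf is a matrix-related target that responds in fewer of them.

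NEVLP2 contributed 1447 Kupffer, 110 B, 183 NK, 111 dendritic, 762 endothelial and 235 Colec11 barcodes, and NEVLPcty contributed 692, 56, 189, 110, 3116 and 508. The endothelial group made up 7.95% of CD3-negative barcodes in NEVLP2 and 27.4% in NEVLPcty, and the Kupffer group 15.1% and 6.07%. Barcodes with markers of 2 or more groups are not in these shares, and they were spread unevenly. Of Clec4f-positive barcodes, 331 of 1778 were left out in NEVLP2 and 670 of 1362 in NEVLPcty. Of Stab2-positive barcodes, 308 of 1070 and 1382 of 4498 were left out. The lower Kupffer share in NEVLPcty therefore depends in part on this rule. Summed counts ran from 435692 UMIs in the B group of NEVLPcty to 19516669 in its endothelial group, and median UMIs per barcode were within 1.5 times of each other between the libraries in every group. Levels are given as CPM, a gene's UMIs scaled to a common total per group and library, and a gene was compared in a group when both libraries together held at least 20 of its UMIs. Intervals are exact 95% limits and cover counting error only. In summed counts, fewer cells that express a gene and less RNA per cell cannot be told apart. The libraries share 25 barcode sequences, none of them within the same group.

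The labels of the groups were checked against marker lists. The Kupffer list (Clec4f, Vsig4, Cd5l, Marco and complement C1q genes among others) summed to 21952 CPM in the Kupffer group of NEVLP2 and 21620 in NEVLPcty, the B list to 3622 and 3349 in the B group, and the NK list to 31955 and 14752 in the NK group. The Colec11 group did not match its label. Its stellate list summed to 1208 and 1326 CPM and its endothelial list to 8874 and 12446, 91.9% and 98.6% of its barcodes had a UMI of the endothelial genes Lyve1, Kdr, Egfl7 or Ptprb, and Dcn, a defining stellate gene, was at 0 UMIs. It is therefore called the Colec11 group. The dendritic list was at 2139 and 1241 CPM in the Flt3 group and at most 656 CPM in the others, with UMIs of 10 of its 11 genes in both libraries. The monocyte list was above it in NEVLPcty, at 1349 and 1489 CPM, of which Lyz2 gave 1171 and 1448. The name dendritic group therefore stands for barcodes with Flt3. At least 2 Flt3 UMIs were found in 23 of 111 of these barcodes in NEVLP2 and 38 of 110 in NEVLPcty. Their median depth was 21477 and 22173.5 UMIs, against at most 6009 in the other groups of these libraries. An endothelial UMI was found in 65.8% and 71.8% of them. Whether 1 Flt3 UMI marks a dendritic cell at this depth was not tested.

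RNA of other cell types differed between the libraries. In the Kupffer group the endothelial list summed to 1341 CPM in NEVLP2 and 3841 in NEVLPcty, and the share of barcodes with an endothelial UMI was 42.6% and 72.0%. The hepatocyte list went the other way, at 8367 and 4441 CPM in the Kupffer group, 6858 and 881 in the B group and 3338 and 1859 in the NK group. In the B group the plasma cell list stood at 17316 and 4512 CPM, and in the Colec11 group the NK list stood at 842 and 9.91. How much these moved the values below was not tested. Values of the Kupffer, B, NK and dendritic groups were recomputed without barcodes that held an endothelial UMI, and levels were also taken in hepatocyte barcodes (at least 10% of UMIs from the hepatocyte list, no CD3 and no group marker, 1739 in NEVLP2 and 1090 in NEVLPcty).

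**Figure D1:**
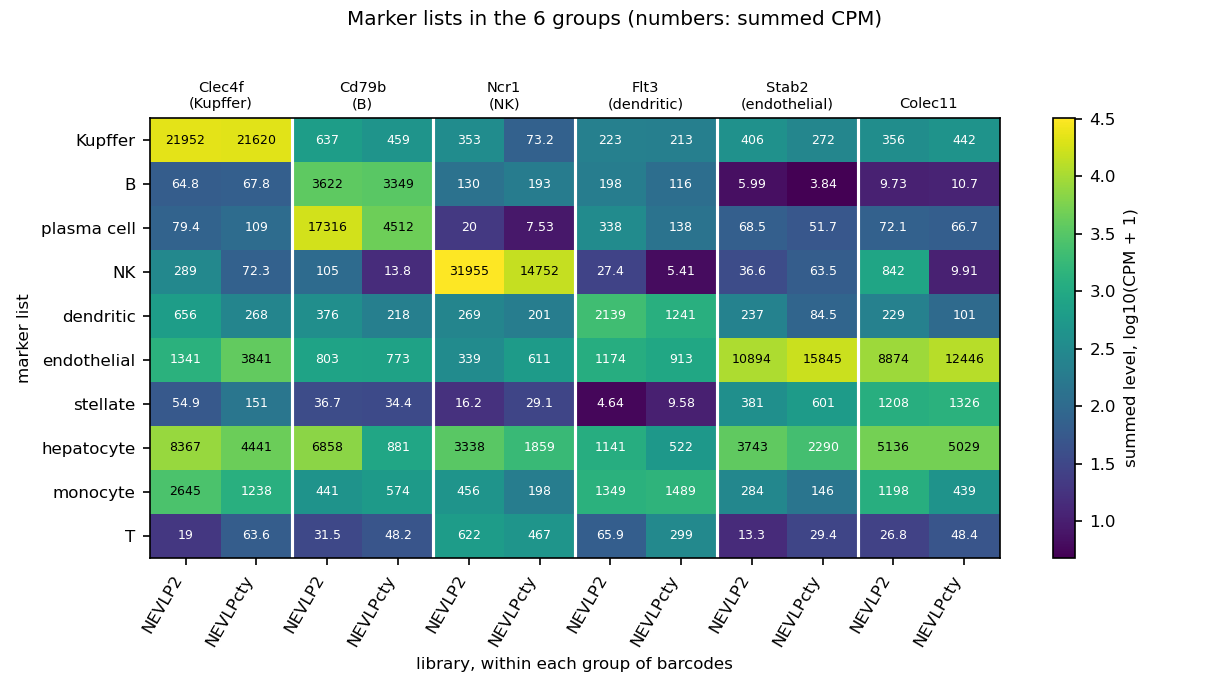
Summed CPM (numbers, with colour on a log10 scale) of 10 marker lists in each of the 6 groups, NEVLP2 and NEVLPcty side by side, 1 library each. The endothelial list is above the stellate list in the Colec11 group of both libraries (8874 against 1208 CPM in NEVLP2), and it is higher in the Kupffer group of NEVLPcty (3841 CPM) than of NEVLP2 (1341 CPM).

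Among all genes compared, 11.1% were at least 2-fold higher in NEVLPcty and 7.06% at least 2-fold lower in the Kupffer group (10517 genes). The corresponding shares were 4.95% and 10.5% in the B group, 11.7% and 4.61% in the NK group, 6.71% and 11% in the dendritic group, 14.8% and 4.63% in the endothelial group and 11.7% and 4.18% in the Colec11 group. The median log2 ratio of NEVLPcty over NEVLP2 over all genes compared was 0.16, -0.09, 0.21, -0.13, 0.32 and 0.23 in the same order. Of 6429 genes compared in at least 5 groups, 61 (0.949%) were at least 2-fold lower in NEVLPcty in 5 or more groups and 13 (0.202%) at least 2-fold higher. In 4 or more groups 134 (2.08%) were lower and 75 (1.17%) higher, and in all 6 groups 14 (0.218%) were lower and 3 (0.0467%) higher. The endothelial list is high in the Colec11 group too, so these counts are not over 6 separate cell types. With the Colec11 group left out, 96 genes were lower and 32 higher in at least 4 of 5 groups. The shared lower genes include chemokines (Cxcl10, Cxcl11, Ccl4), interferon-inducible genes (Rtp4, Oas1f, Gbp5), Nos2, Lcn2 and Il4i1.

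Genes of IL-10 and its receptor differed by less than 2-fold wherever they were compared, while several TGF-β ligand and receptor genes were higher in NEVLPcty in the Kupffer and NK groups. Il10 was compared in the Kupffer group, where it stood at 3.85 CPM in NEVLP2 and 3.68 in NEVLPcty. Il10ra, the ligand-binding chain, was at 5.29 and 3.85 CPM in the Kupffer group, 17.1 and 19.4 in the NK group and 14.8 and 14.2 in the dendritic group, and all 3 intervals include no difference. Il10rb, the shared second chain, was at 33.3 and 34 CPM in the Kupffer group, 33.7 and 34.3 in the endothelial group and 28.3 and 15.4 in the dendritic group. Neither receptor gene differed by 2-fold in a group where it was compared. Tgfb1, the ligand, was at 463 CPM in the NK group of NEVLP2 and 1554 in NEVLPcty, a log2 ratio of 1.75 (1.60 to 1.90), while the other 5 groups ranged from -0.22 to 0.62. Tgfbr1, the signalling receptor chain, was at 14.5 and 52.7 CPM in the Kupffer group (log2 1.86, 1.60 to 2.13) and at 20.2 and 22.1 in the endothelial group. Tgfbr2, the ligand-binding chain, had log2 ratios of 1.07 in the NK group, 0.98 in the endothelial group and 0.94 in the Colec11 group, against -1.41 in the dendritic group. Over the list of TGF-β ligands and receptors, 5 of 13 genes compared were at least 2-fold higher and 1 lower in the Kupffer group. In the NK group 5 of 9 were higher and 0 lower. Of all genes compared, 11.1% were higher and 7.06% lower in the Kupffer group, and 11.7% and 4.61% in the NK group. The endothelial list was also higher in the Kupffer group of NEVLPcty (1341 and 3841 CPM), and its part in the Kupffer count was not tested.

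The feedback targets of TGF-β were higher in NEVLPcty in most groups. Smad7, the inhibitory SMAD, was at 44 CPM in NEVLP2 and 130 in NEVLPcty in the Kupffer group, 51.1 and 280 in the B group, 113 and 377 in the NK group, 117 and 210 in the dendritic group, 148 and 252 in the endothelial group and 125 and 206 in the Colec11 group. NEVLPcty was thus the higher library in all 6 groups, by log2 1.56 (1.40 to 1.71) in the Kupffer group, 2.45 (1.92 to 3.01) in the B group, 1.73 (1.43 to 2.05) in the NK group and 0.72 to 0.85 in the other 3 groups. A Smad7 UMI was found in 39.9% of NK barcodes in NEVLP2 and 72.5% in NEVLPcty, or 15.8% and 46.5% after each barcode was thinned to 2000 UMIs, against 0.978% and 2.75% of hepatocyte barcodes, whose median depth is lower (1510 and 1738 UMIs, against 5487 and 4862 in the NK group). In the Colec11 group the shares were 34.5% and 37.0%, and 23.2% and 21.8% after thinning, so the higher level there was not seen in thinned shares. Without barcodes that held an endothelial UMI the log2 ratio of Smad7 was 1.65 in the Kupffer group and 1.80 in the NK group.

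Pmepa1, which encodes a membrane protein that sequesters SMADs, was at 34.3 CPM in NK barcodes of NEVLP2 and 270 in NEVLPcty (log2 2.98, 2.47 to 3.52). It was at 19.9 and 64.6 CPM in the Kupffer group (1.70, 1.47 to 1.93), 30.4 and 45.4 in the dendritic group, 44.4 and 84.9 in the endothelial group and 60 and 103 in the Colec11 group, and at 56.4 and 59.7 in the B group, where the interval (-0.68 to 0.82) includes no difference. A Pmepa1 UMI was found in 12% of NK barcodes in NEVLP2 and 57.7% in NEVLPcty (4.32% and 40.9% thinned), and in 25.2% and 24.5% of dendritic barcodes (2.75% and 6.48% thinned). Hepatocyte barcodes were at 18.4 and 62.5 CPM, with a UMI in 3.39% and 12.9% of them. Skil, a transcriptional co-repressor of SMADs, had log2 ratios of 0.58, 1.25, 0.89 and 0.57 in the Kupffer, B, NK and dendritic groups, and -0.34 and -0.14 in the endothelial and Colec11 groups. Klf10, an early TGF-β response transcription factor, had ratios of 1.71 in the endothelial group, 1.85 in the Colec11 group and 1.70 in the Kupffer group, and the Kupffer value was 0.58 without barcodes holding an endothelial UMI.

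**Figure D2:**
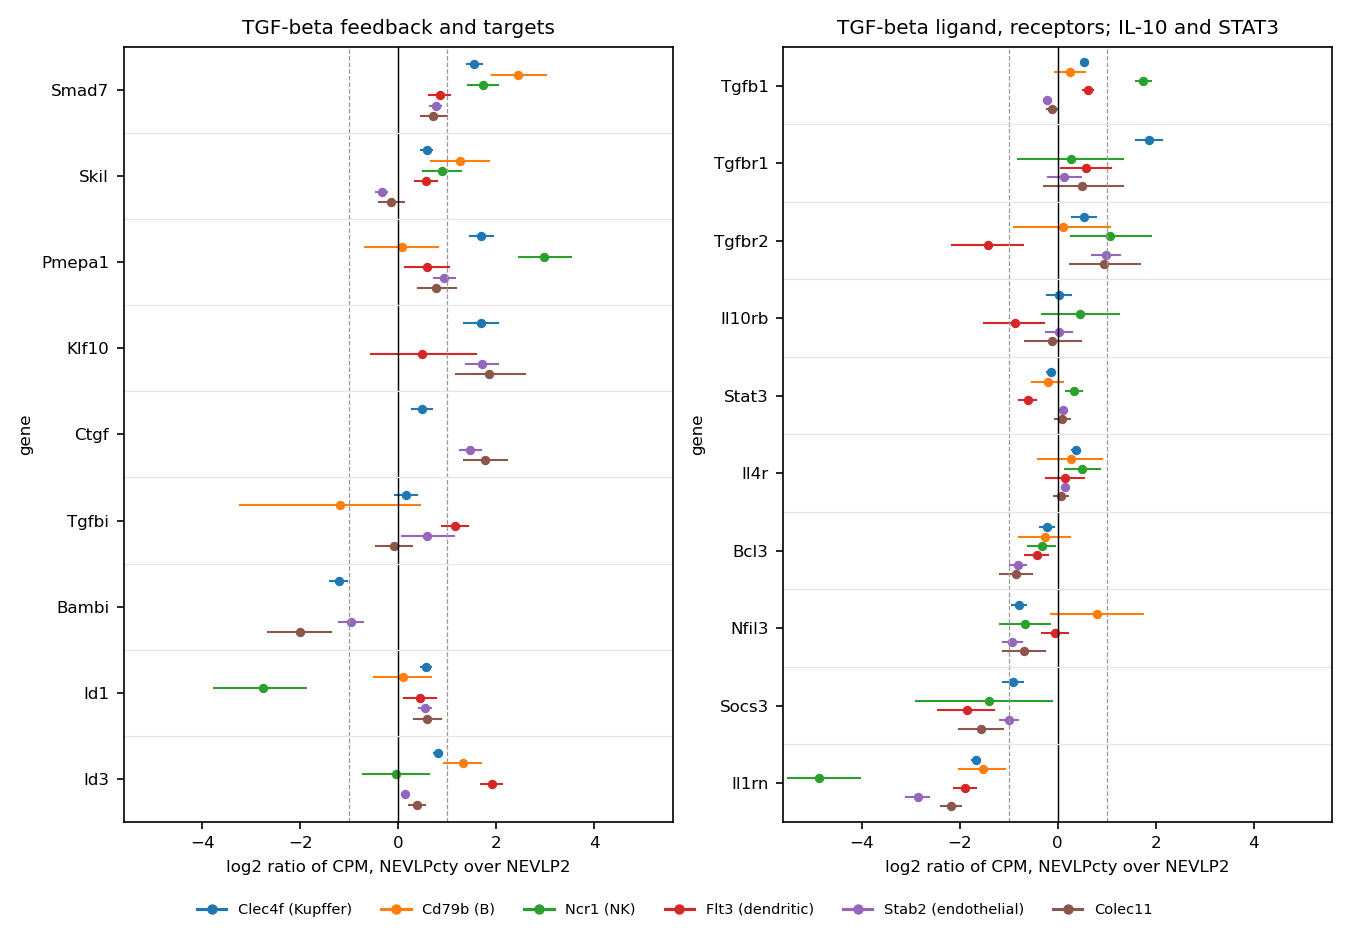
Log2 ratio of CPM (NEVLPcty over NEVLP2) with exact 95% counting intervals for 9 TGF-β feedback and target genes and 10 genes of the ligands, receptors and STAT3, by group. The NK interval of Il1rn runs past the edge of the axis, to -5.83. Smad7 lies above 0 in all 6 groups, and Pmepa1 has its highest value in the NK group (2.98).

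Other genes of the pathway were mixed in direction. Ctgf, a matricellular protein, was at 45.7 and 127 CPM in the endothelial group (1.47) and 40.5 and 138 in the Colec11 group (1.77). Bambi, a decoy receptor of the pathway, was lower in NEVLPcty in the 3 groups where it was compared, at log2 -1.21 in the Kupffer group, -0.97 in the endothelial group and -2.00 in the Colec11 group. Id1 and Id3, HLH inhibitors that TGF-β family signals regulate, had different patterns in the NK group. Id1 was at 87.6 and 12.9 CPM there (log2 -2.76, -3.77 to -1.89), while its other 5 groups ranged from 0.09 to 0.60. Id3 stood at 40.9 and 39.8 CPM in the NK group and at 98.4 and 369 in the dendritic group (1.91). Over all members compared of the TGF-β response list, 8 of 29 were at least 2-fold higher and 2 lower in the Kupffer group, 4 and 3 of 14 in the B group, 4 and 2 of 16 in the NK group, 4 and 2 of 19 in the dendritic group, 4 and 1 of 29 in the endothelial group and 5 and 5 of 28 in the Colec11 group. The list medians were 0.58, 0.09, 0.38, 0.57, 0.35 and 0.38, each above the median of all genes compared in its group (0.16, -0.09, 0.21, -0.13, 0.32 and 0.23). The endothelial list median was thus close to that of all genes. Of all genes compared, 11.1%, 4.95%, 11.7%, 6.71%, 14.8% and 11.7% were at least 2-fold higher, in the same order of groups. The shares at least 2-fold lower were 7.06%, 10.5%, 4.61%, 11%, 4.63% and 4.18%. Genes at 0 in 1 library entered all list medians at their bound of 3 counts.

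Targets of IL-10 and STAT3 were not higher as a group in NEVLPcty. Socs3, the feedback inhibitor of cytokine receptors, was at 78.4 CPM in NEVLP2 and 41.7 in NEVLPcty in the Kupffer group, 20 and 7.53 in the NK group, 52.8 and 14.6 in the dendritic group, 82.9 and 41.7 in the endothelial group and 81.9 and 27.8 in the Colec11 group. NEVLPcty was the lower library in these 5 groups, with log2 ratios from -1.86 to -0.91. Il1rn, the IL-1 receptor antagonist, was at 917 and 288 CPM in the Kupffer group (-1.67) and 375 and 12.9 in the NK group (-4.86), and was at least 2-fold lower in all 6 groups. In the B group 184 of its 236 UMIs in NEVLP2 came from 1 barcode, and the ratio there turned from -1.52 to 2.62 in barcodes with at least 2 UMIs of the group marker. Of the list's members compared, 1 of 25 was at least 2-fold higher and 7 lower in the Kupffer group, 0 and 2 of 19 in the B group, 1 and 3 of 22 in the NK group, 3 and 6 of 23 in the dendritic group, 0 and 6 of 23 in the endothelial group and 1 and 7 of 23 in the Colec11 group. The medians were -0.21, 0.00, 0.05, -0.50, -0.65 and -0.59. Over all genes compared they were 0.16, -0.09, 0.21, -0.13, 0.32 and 0.23. At least 2-fold higher were 11.1%, 4.95%, 11.7%, 6.71%, 14.8% and 11.7% of all genes. At least 2-fold lower were 7.06%, 10.5%, 4.61%, 11%, 4.63% and 4.18%. In the B group the share lower was thus near that of all genes, and the list median was above theirs. In the NK group 12 members were above 0 and 10 below.

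**Figure D3:**
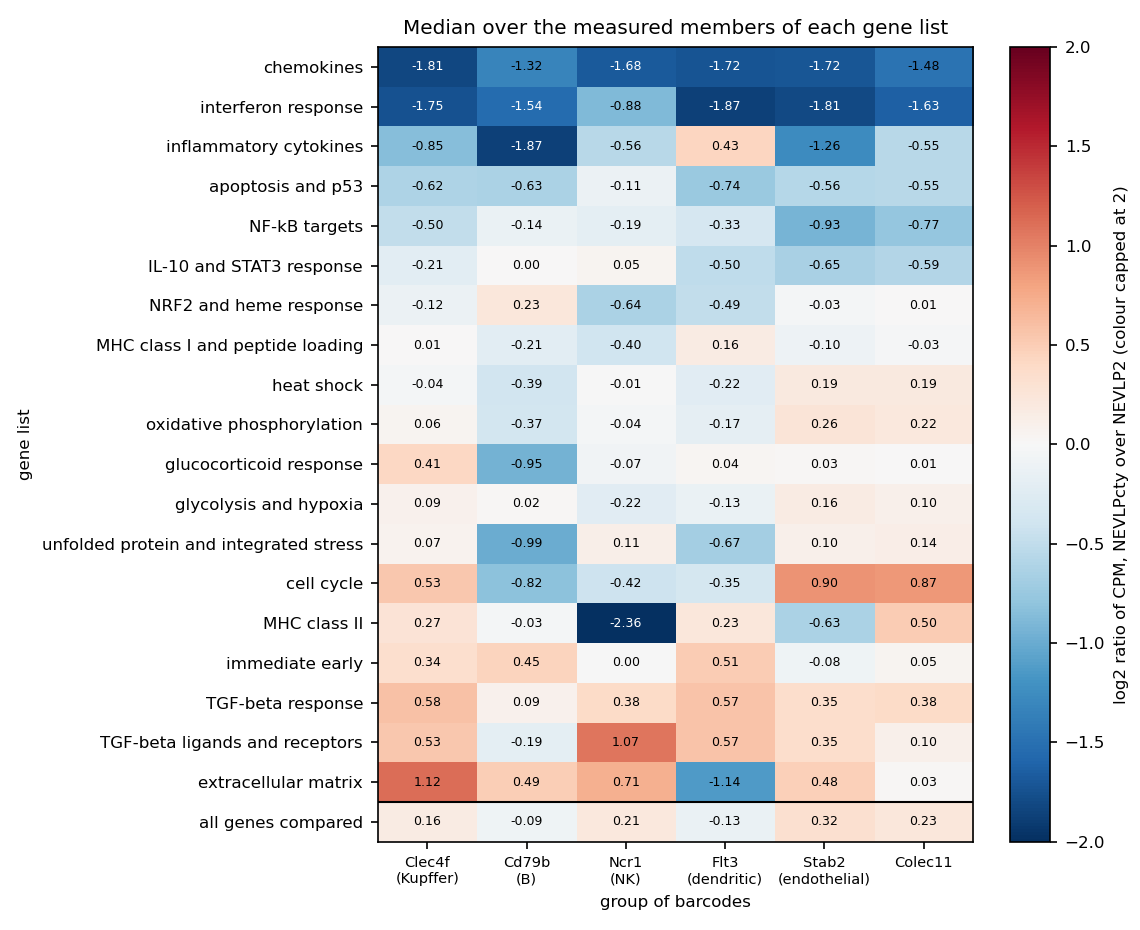
Median log2 ratio (NEVLPcty over NEVLP2) of 19 gene lists and of all genes compared, by group. The interferon response median is below 0 in all 6 groups (-1.87 to -0.88) and the TGF-β response median is above 0 in all 6 (0.09 to 0.58). In the endothelial group the TGF-β response median is 0.35, beside 0.32 for all genes compared.

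Interferon-inducible genes were mostly lower in NEVLPcty in every group. Of the members compared, 15 of 23 were at least 2-fold lower in the Kupffer group, 14 of 21 in the B group, 9 of 19 in the NK group, 19 of 22 in the dendritic group, 17 of 23 in the endothelial group and 16 of 21 in the Colec11 group, and 0 were at least 2-fold higher in any group. The medians were -1.75, -1.54, -0.88, -1.87, -1.81 and -1.63. Isg15, a ubiquitin-like protein induced by type I interferon, was at 807 CPM in NEVLP2 and 167 in NEVLPcty in the Kupffer group, 1114 and 172 in the NK group, 266 and 22.5 in the dendritic group, 630 and 191 in the endothelial group and 569 and 183 in the Colec11 group. Only the B group, at 186 and 174 CPM, showed no 2-fold difference in Isg15, and 69 of its 76 UMIs in NEVLPcty came from 1 barcode.

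Rtp4, an interferon-inducible chaperone, was at 148 and 23.1 CPM in the Kupffer group (log2 -2.68, -2.94 to -2.43), 83.9 and 9.18 in the B group, 79 and 24.8 in the NK group, 9.71 and 2.91 in the dendritic group, 161 and 25 in the endothelial group and 143 and 23.3 in the Colec11 group. NEVLPcty was the lower library in all 6 groups, by ratios from 3.19-fold in the NK group to 9.14-fold in the B group. Hepatocyte barcodes were at 200 and 74.5 CPM (2.68-fold lower), and 0 of the 6 groups were above their level in NEVLP2. The part of hepatocyte RNA in the Rtp4 values of the groups was not tested. Oas1f, an oligoadenylate synthetase, was at 44.5 and 10.5 CPM in the Kupffer group and 21.5 and 2.77 in the endothelial group. Irf9, the DNA-binding subunit of the interferon-stimulated complex ISGF3, was among the 14 genes at least 2-fold lower in all 6 groups, with log2 ratios from -1.93 to -1.02.

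Gbp5 and Irf1 had another direction in the NK group. Gbp5, a guanylate-binding GTPase that promotes inflammasome assembly, was at 355 CPM in NEVLP2 and 35.7 in NEVLPcty in the Kupffer group (log2 -3.31), 162 and 20.3 in the endothelial group (-2.99) and 365 and 522 in the NK group (0.52, 0.32 to 0.71). Irf1, a transcription factor induced by interferon-γ, was at 170 and 50.7 CPM in the Kupffer group, 559 and 110 in the endothelial group and 358 and 471 in the NK group. The NK values of both genes were thus slightly higher in NEVLPcty where 4 of the other 5 groups were at least 2-fold lower for Irf1 and all 5 for Gbp5. Gbp2, a related GTPase, was lower in the NK group too, at 217 and 118 CPM, and at 499 and 73.3 in the Kupffer group. Reads of guanylate-binding and Oas genes may be split between near-identical copies by the authors' counting, so their levels are uncertain.

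Promoters of the shared lower genes were searched for the interferon-stimulated response element, since many of them are interferon-inducible. The motif searched was GAAA, any 2 bases and GAAA again, and on either strand it was found in the 250 bases upstream of 8 of the 45 shared lower genes with a RefSeq entry (17.8%: Cxcl10, Eif2ak2, Gbp2, Gbp5, Ifih1, Irgm, Parp14 and Samd9), against 992 of 27457 genes (3.61%), and in 0 of the 9 shared higher genes. The motif TTCNNNGAA, which STAT dimers recognise, was found in 11 of 45 (24.4%) against 2250 of 27457 (8.19%). The 11 were Batf, C4bpb, Cish, Cxcl11, Fgb, Irf9, Irgm, Nlrp3, Parp14, Rup2 and Samd9. In NEVLP2, C4bpb, Cxcl11, Fgb and Rup2 were above the level of hepatocyte barcodes in 0 groups, Cish in 1 and the others in at least 4. The palindromic SMAD motif GTCTAGAC was found in 0 of 45 and 0 of 9, against 55 of 27457 (0.200%). The motif is so rare among all genes that 0 matches in lists of this size cannot tell them from other genes. The same holds for the first motif in the 9 shared higher genes. A match describes the letters in this window, not a bound site. Windows of Cxcl10, Gbp2 and Gbp5 are shown because their values are described here, from RefSeq GRCr8, all on the + strand and 5′ to 3′, with the motif match in capitals. They lie at chr14:15988816-15989065 for Cxcl10, chr2:234005477-234005726 for Gbp2 and chr2:233910749-233910998 for Gbp5.
Cxcl10: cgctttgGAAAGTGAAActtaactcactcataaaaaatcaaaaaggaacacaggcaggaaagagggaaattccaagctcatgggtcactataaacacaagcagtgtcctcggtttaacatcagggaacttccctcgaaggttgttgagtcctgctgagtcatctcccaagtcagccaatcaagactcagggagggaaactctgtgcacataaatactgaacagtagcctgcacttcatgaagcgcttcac
Gbp2: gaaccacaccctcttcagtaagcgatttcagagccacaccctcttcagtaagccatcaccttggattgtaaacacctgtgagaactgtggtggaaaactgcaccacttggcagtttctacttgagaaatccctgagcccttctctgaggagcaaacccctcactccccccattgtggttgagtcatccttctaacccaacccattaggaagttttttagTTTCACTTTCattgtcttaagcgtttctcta
Gbp5: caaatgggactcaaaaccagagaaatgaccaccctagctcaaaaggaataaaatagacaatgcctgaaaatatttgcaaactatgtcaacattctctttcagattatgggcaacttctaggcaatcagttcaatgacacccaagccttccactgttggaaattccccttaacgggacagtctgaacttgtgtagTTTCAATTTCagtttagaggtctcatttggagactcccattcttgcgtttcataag
Counted from the gene start, the match lies at -243 to -234 in Cxcl10, -31 to -22 in Gbp2 and -56 to -47 in Gbp5, where the last 2 match on the opposite strand.

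Chemokines were lower in NEVLPcty as well. Of the list's members compared, 11 of 19 were at least 2-fold lower and 2 higher in the Kupffer group, 5 and 2 of 9 in the B group, 7 and 0 of 10 in the NK group, 8 and 0 of 13 in the dendritic group, 13 and 3 of 19 in the endothelial group and 9 and 4 of 15 in the Colec11 group. Cxcl10, a CXCR3 ligand induced by interferons, was at 824 CPM in NEVLP2 and 70.3 in NEVLPcty in the Kupffer group (log2 -3.55, -3.69 to -3.41), 442 and 11.5 in the B group, 122 and 17.2 in the NK group, 903 and 43.3 in the dendritic group, 2008 and 228 in the endothelial group (-3.14, -3.19 to -3.08) and 1432 and 224 in the Colec11 group. NEVLPcty was the lower library in all 6 groups, by ratios from 6.39-fold in the Colec11 group to 38.5-fold in the B group. In NEVLP2, 279 of the 337 Cxcl10 UMIs of the B group and 1177 of the 2139 of the dendritic group came from 1 barcode each. Without barcodes that held an endothelial UMI the dendritic log2 ratio was -0.94 and the Kupffer ratio -3.87.

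Hepatocyte barcodes carried Cxcl10 too, at 1113 and 178 CPM (6.24-fold lower), with a UMI in 67.9% and 22.7% of them. No group had a higher share in NEVLP2, the endothelial group being at 66.1% and the Kupffer group at 55.4%, so these shares are not read as expression by the groups. The endothelial and Colec11 groups were above the hepatocyte level in CPM in NEVLP2, and the other 4 groups below it. Cxcl11, a second CXCR3 ligand, was at 147 CPM in NEVLP2 and 3.68 in NEVLPcty in the Kupffer group and 166 and 8.51 in the endothelial group, against 729 and 73.5 in hepatocyte barcodes. Ccl4, a chemokine of activated macrophages and NK cells, was at 13378 and 1952 CPM in the Kupffer group (-2.78), 533 and 59.6 in the endothelial group (-3.16) and 4562 and 3481 in the NK group (-0.39), and the NK group was its one group under 2-fold.

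**Figure D4:**
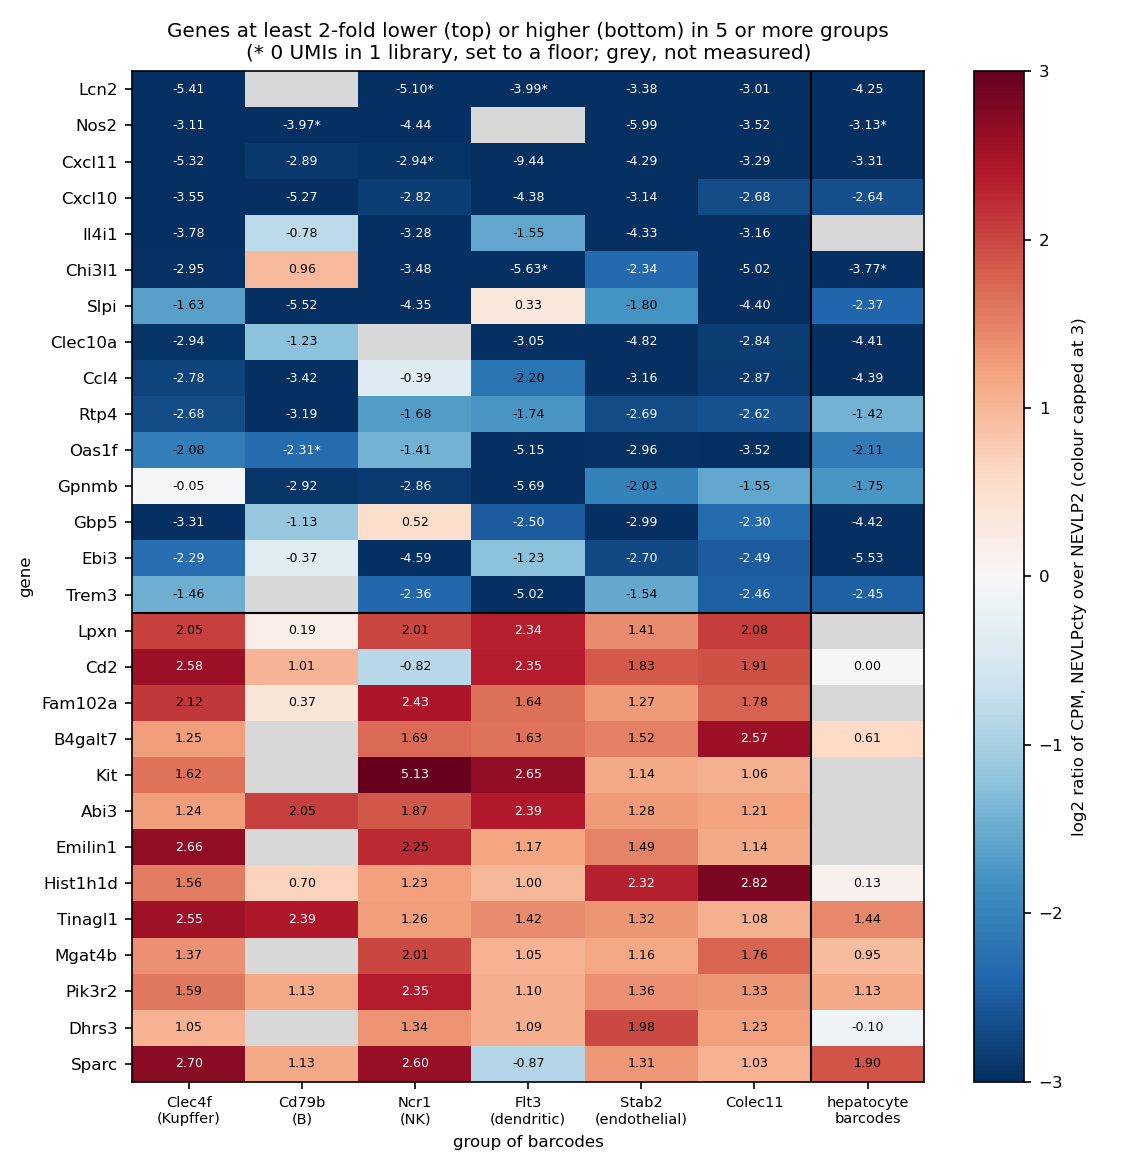
Log2 ratio (NEVLPcty over NEVLP2) of the 15 named shared lower and 13 shared higher genes in the 6 groups and in hepatocyte barcodes. Grey marks a gene not compared and a star a gene with 0 UMIs in 1 library, whose value is a bound. Hepatocyte barcodes are also below 0 for the 14 named shared lower genes compared there, such as Cxcl10 (-2.64) and Ccl4 (-4.39).

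The other named shared lower genes were of several kinds. Lcn2, an iron-siderophore-binding protein of the acute phase, was at 178 CPM in NEVLP2 and 4.19 in NEVLPcty in the Kupffer group (log2 -5.41), 57.2 and 5.48 in the endothelial group and 110 and 0 in the NK group, at least 34.2-fold lower. Hepatocyte barcodes were above all of them in NEVLP2, at 247 CPM, and at 13 CPM in NEVLPcty. Nos2, inducible nitric oxide synthase, was at 77.9 and 9.04 CPM in the Kupffer group and 93.3 and 4.3 in the NK group, with 8.77 and 0 in hepatocyte barcodes. In the B group it was at 108 and 0 CPM, but 61 of those 82 UMIs came from 1 barcode. Ebi3, the shared subunit of IL-27 and IL-35, was at 982 and 201 CPM in the Kupffer group (-2.29) and 208 and 8.61 in the NK group (-4.59), against 46.3 and 1 in hepatocyte barcodes.

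Il4i1, a secreted amino acid oxidase, was at 69.2 and 5.02 CPM in the Kupffer group and 140 and 47.9 in the dendritic group, and Clec10a, a macrophage and dendritic cell lectin, at 440 and 57.4 in the Kupffer group and 979 and 118 in the dendritic group. Slpi, a protease inhibitor, differed by group, at 1724 and 556 CPM in the Kupffer group and 14842 and 18704 in the dendritic group. Gpnmb, a lysosomal glycoprotein of activated macrophages, was at 346 and 334 CPM in the Kupffer group (-0.05) and at least 2-fold lower in the other 5. Chi3l1, a chitinase-like protein, was at 158 and 20.4 CPM in the Kupffer group and 62.1 and 0 in the dendritic group, and the B group had the opposite sign (34.1 and 66.6). Trem3, an activating receptor, was at 40.4 and 14.7 CPM in the Kupffer group and 82.9 and 16.1 in the NK group.

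Of the 61 shared lower genes, 58 had at least 20 UMIs in hepatocyte barcodes and 38 of these were at least 2-fold lower there too, where 7.09% of all 7578 genes compared were. In NEVLP2, 26 of the 61 were above the hepatocyte level in every group compared and 18 in none. Among the 18 are genes that hepatocytes make, such as Fgb, Hp, Orm1, Otc and Gnmt, named here after their values were seen. Fgb, the fibrinogen β chain, had log2 ratios from -2.58 to -0.88 in the groups, beside a hepatocyte list that was lower in NEVLPcty in all 6. With barcodes above 5% hepatocyte UMIs left out, 50 genes met the shared lower rule and 48 of them were among the 61. Without barcodes that held an endothelial UMI, 36 did and 30 were among the 61. Fewer of the 61 met the rule with at least 2 UMIs of the group marker (12) and after thinning to 1000 UMIs (11).

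Inflammatory cytokines were mixed in direction. Of the list's members compared, 6 of 14 were at least 2-fold lower and 2 higher in the Kupffer group, 3 and 1 of 5 in the B group, 4 and 1 of 9 in the NK group, 2 and 2 of 5 in the dendritic group, 6 and 0 of 11 in the endothelial group and 4 and 0 of 9 in the Colec11 group. The medians were -0.85, -1.87, -0.56, 0.43, -1.26 and -0.55. Il1b, the inflammasome-processed cytokine, was at 3180 and 1397 CPM in the Kupffer group (log2 -1.19) and 840 and 2197 in the dendritic group (1.39). Il12b, a subunit of IL-12 and IL-23, was at 1.81 and 24.6 CPM in the Kupffer group, where 144 of its 147 UMIs in NEVLPcty came from 1 barcode. Il6, an acute-phase cytokine, was at 96.6 CPM in the Kupffer group of NEVLP2 (1279 UMIs) and 1.51 in NEVLPcty (9 UMIs), 64.1-fold lower, and at 3.55 and 0.256 in the endothelial group. Csf2, the growth factor GM-CSF, was at 138 and 5.28 CPM in the endothelial group (-4.71), 200 and 16.8 in the Colec11 group and 26.8 and 15.1 in the Kupffer group. Of NF-κB targets, 7 of 16 were at least 2-fold lower and 0 higher in the endothelial group and 5 and 0 of 16 in the Colec11 group. The counts were 1 and 0 of 16 in the Kupffer group, 2 and 2 of 14 in the B group, 2 and 0 of 15 in the NK group and 0 and 1 of 16 in the dendritic group. By direction alone, 15, 9, 11, 13, 16 and 16 members were below 0 in the Kupffer, B, NK, dendritic, endothelial and Colec11 groups. The medians were -0.50, -0.14, -0.19, -0.33, -0.93 and -0.77. Icam1, an adhesion receptor on the list, was at 2109 and 820 CPM in the endothelial group, 1865 and 678 in the Colec11 group and 578 and 366 in the Kupffer group. Nfkbia, the inhibitor of NF-κB and itself its target, was at 2634 and 2591 CPM in the Kupffer group and 8069 and 5355 in the endothelial group. Vegfa, an endothelial growth factor, was higher in NEVLPcty in the Kupffer group, at 19.9 and 115 CPM (2.52), and about equal in the endothelial group, at 30.6 and 29.5.

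The 13 shared higher genes were of mixed function. Few of them met the rule under some other settings: 2 of the 13 did without barcodes holding an endothelial UMI, 3 with at least 2 UMIs of the group marker and 0 after thinning to 1000 UMIs, settings that also leave fewer UMIs. Abi3, an actin-regulatory adaptor, was at 66.6 CPM in NEVLP2 and 158 in NEVLPcty in the Kupffer group, 24.9 and 103 in the B group, 58.1 and 212 in the NK group, 16 and 84.1 in the dendritic group, 31.7 and 77 in the endothelial group and 31.6 and 73.2 in the Colec11 group. The ratios ran from 2.32-fold in the Colec11 group to 5.24-fold in the dendritic group. In hepatocyte barcodes Abi3 was at 2.74 and 2.67 CPM, on too few UMIs to be compared. Abi3, Tinagl1 and Pik3r2, a regulatory subunit of PI3-kinase, were higher by at least 2-fold in all 6. Of the 13 genes, 8 were compared in hepatocyte barcodes and 3 of them were at least 2-fold higher there, where 5.04% of all genes were. The others of the 13 were B4galt7 and Mgat4b, which encode glycosyltransferases, Emilin1, a matrix glycoprotein, Hist1h1d, a linker histone, and Dhrs3, a retinal reductase, with Kupffer log2 ratios of 1.25, 1.37, 2.66, 1.56 and 1.05. Without barcodes holding an endothelial UMI, Dhrs3 was at -0.88 in the Kupffer group and Hist1h1d at -1.13 in the dendritic group. Lpxn, a leukocyte adhesion adaptor, was at 16 and 66.3 CPM in the Kupffer group, 88.6 and 356 in the NK group and 28.7 and 145 in the dendritic group, and at 185 and 211 in the B group. Without barcodes holding an endothelial UMI the Kupffer log2 ratios were 2.41 for Lpxn and 1.43 for Abi3, against 2.05 and 1.24 with them.

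Kit, the stem cell factor receptor, was at 1.9 CPM (2 UMIs) in the NK group of NEVLP2 and 66.7 (62 UMIs) in NEVLPcty, a log2 ratio of 5.13 with a counting interval of 3.22 to 8.21. A Kit UMI was found in 1.09% and 23.8% of NK barcodes. Fam102a, whose function is not well described, was also highest in NK barcodes, at 95.2 and 514 CPM, and was at 31 and 74.9 in the endothelial group. Cd2, an adhesion receptor of T and NK cells, was at 8.76 and 52.6 CPM in the Kupffer group and 58.3 and 296 in the dendritic group but at 74.3 and 42 in the NK group. Cd2 is on the T cell marker list and made up 52.6 of that list's 63.6 CPM in the Kupffer group of NEVLPcty and 296 of its 299 CPM in the dendritic group. Lck, a T and NK cell kinase on the list, had a log2 ratio of 0.12 in the Kupffer group. Tinagl1 and Sparc, matrix proteins, were much higher in the endothelial than in the Kupffer group. Tinagl1 was at 339 and 849 CPM in the endothelial group and 36.2 and 212 in the Kupffer group, where its log2 ratio of 2.55 was 0.61 without barcodes holding an endothelial UMI. Sparc was at 462 and 1146 CPM in the endothelial group and 40.4 and 262 in the Kupffer group, and its Kupffer ratio of 2.70 was 1.78 without them. The extracellular matrix median in the Kupffer group was 1.12 (9 of 13 list members at least 2-fold higher, 2 lower), and -0.079 without those barcodes.

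Differences particular to a group were ranked by counting intervals, and 216 of 7538 genes (2.87%) met the rule, at least 2-fold in 1 group and under 2-fold in every other group where they were compared, which had to be at least 3. A gene can therefore lack a value in 1 or 2 groups, as Rubcnl does in the B and NK groups and Aspm in the B and Colec11 groups. The dendritic group had 64 lower and 16 higher, the B group 34 and 10, the NK group 18 and 22, the Kupffer group 6 and 30, the endothelial group 3 and 6 and the Colec11 group 6 and 1. The endothelial list is also high in the Colec11 group, and a 2-fold change in both of these groups counts as particular to neither. Their low counts may depend on this, and the endothelial group was not recounted without the Colec11 group. The rule ranks genes and tests nothing.

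In the Kupffer group Znfx1, an antiviral RNA helicase, was at 61.6 CPM in NEVLP2 and 8.87 in NEVLPcty (log2 -2.79), Serping1, the C1 complement inhibitor, at 307 and 129 (-1.26), and Evl, an actin regulator, at 120 and 41.4 (-1.53). Rubcnl, a regulator of autophagy, was at 21.9 and 7.7 CPM. All 4 kept at least a 2-fold ratio without barcodes holding an endothelial UMI. Higher in the Kupffer group were Mcam, an adhesion molecule, at 19.9 and 117 CPM (2.56), Pdgfa, a growth factor for mesenchymal cells, at 86.8 and 193 (1.15), Gimap5, a lymphocyte survival GTPase, at 12.6 and 38, and Aspm, a mitotic spindle protein, at 0.604 and 4.19. Without those barcodes Gimap5 was at 0.58, Mcam at 2.16 and Pdgfa at 1.41. The 30 genes higher in this group include the endothelial gene Lyve1 (1.36). The endothelial list of the group was at 1341 and 3841 CPM, and its part in these genes was not tested.

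In the NK group the higher genes were Atg14, an autophagy gene (1.9 and 31.2 CPM), Ndufaf2, a complex I assembly factor (1.9 and 21.5), and the cytochrome P450 genes Cyp4f17 (4.76 and 59.2) and Cyp4f5 (1.9 and 19.4), whose near-identical family copies make them uncertain. Atg14, Ndufaf2 and Cyp4f5 had 2 UMIs each in NEVLP2, and their log2 intervals were 2.05 to 7.15, 1.46 to 6.64 and 1.28 to 6.5. Beside Id1, the lower genes were Cst3, a protease inhibitor of myeloid cells, Clu, a secreted chaperone, and Lxn, a carboxypeptidase inhibitor. Cst3 was at 2103 and 164 CPM, but 1943 of its 2208 UMIs in NEVLP2 came from 1 barcode, and its ratio was -0.70 without the top barcode of each library. Of 57 UMIs of Clu 34, and of 32 of Lxn 26, also came from 1 barcode. The MHC class II list had 5 of 5 members at least 2-fold lower in the NK group (median -2.36) and 0 of 6 in the dendritic group, and 725 of the 1245 Cd74 UMIs in NK barcodes of NEVLP2 came from 1 barcode. Lists of myeloid cells were lower in the NK group as well, the Kupffer list at 353 and 73.2 CPM, the monocyte list at 456 and 198 and the neutrophil list at 282 and 4.30, and their part in the MHC class II genes and Cst3 was not tested.

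In the B group Egr1, an immediate early transcription factor, was at 87.9 and 390 CPM (log2 2.15, 1.73 to 2.58), and Rhoq, a small GTPase, at 21 and 96.4. Fam49a, an actin regulator, and Tnfsf12, the cytokine TWEAK, were higher on 28 and 18 UMIs in NEVLPcty. The lower genes were Apoc4, Decr1 and Eci3, of lipoproteins and fatty acid oxidation, and the kinase Sgk1. Each had 1 or 2 UMIs in NEVLPcty, and Apoc4, for example, was at 49.8 and 2.3 CPM with a log2 interval of -9.78 to -1.88. The hepatocyte list of this group was at 6858 and 881 CPM in the 2 libraries, and the part of that difference in these genes was not tested.

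Beside the genes of the dendritic group, its plasmacytoid dendritic list stood at 802 CPM in NEVLP2 and 219 in NEVLPcty and its dendritic list at 2139 and 1241, and their part in the 64 lower genes was not tested. Itgav, an integrin chain that can activate latent TGF-β, was at 2.95 and 21.2 CPM (log2 2.85, 1.70 to 4.23), Abca1, a cholesterol exporter, at 6.75 and 32.5, and Sla, an adaptor that dampens receptor signalling, at 27.9 and 96.2 (1.79). Fam124a was at 0.844 and 9.99 CPM. Chac1, a glutathione-degrading enzyme of the stress response, was at 33.3 and 1.67 CPM (-4.32), beside an unfolded protein and integrated stress list with 5 of 16 members at least 2-fold lower and 0 higher in this group. Egln3, an oxygen sensor, and Asgr2, a hepatocyte lectin, had 1 UMI each in NEVLPcty, and 20 of the 22 UMIs of the endothelin receptor gene Ednrb in NEVLP2 came from 1 barcode.

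In the endothelial group Zc3h12a, the ribonuclease Regnase-1 that degrades inflammatory transcripts, was at 367 CPM in NEVLP2 and 173 in NEVLPcty (log2 -1.08), Basp1, a membrane-associated protein, at 78.3 and 32.9, and Hmgn3, a nucleosome-binding protein, at 6.43 and 1.64. The Basp1 ratio of -1.25 turned to 0.19 in barcodes with at least 2 UMIs of the group marker. Ttc13 was at 0.887 and 7.74 CPM (3.12, 1.74 to 5.02, on 4 UMIs in NEVLP2), Chd3, a chromatin remodeller, at 9.76 and 25.9, Zfp292, a zinc finger gene, at 23.5 and 62, and Fuca1, a lysosomal fucosidase, at 41.3 and 90. In the Colec11 group Casp8, the initiator caspase, was at 0 and 8.01 CPM, at least 3.29-fold higher. Klrb1a, an NK receptor, was at 56.7 and 12.6 CPM there and Faslg, the death ligand of NK and T cells, at 19.5 and 0.763, beside an NK list at 842 and 9.91 CPM. The myeloid gene Bin2 was at 38.9 and 12.6 CPM and Cdan1 at 15.4 and 5.72.

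The naive and cold-stored livers place both perfused libraries. They are 1 library each, the ratios below share the CS library, and naive holds 28 endothelial and 6 Colec11 barcodes. Against CS, the interferon list had medians of -0.10, 0.07, 0.61, 0.81, -0.59 and -0.43 in NEVLP2 (Kupffer, B, NK, dendritic, endothelial and Colec11 groups) and -1.65, -1.32, -0.48, -0.64, -1.64 and -1.53 in NEVLPcty. NEVLPcty was below CS for 20 of 23, 16 of 21, 11 of 19, 16 of 22, 21 of 23 and 17 of 21 members. In the order naive, CS, NEVLP2 and NEVLPcty, Rtp4 of the Kupffer group was at 127, 192, 148 and 23.1 CPM, and of the endothelial group at 272, 433, 161 and 25. NEVLPcty was the lowest of the 4 libraries for Rtp4 in all 6 groups, although the naive Colec11 level of 28.1 CPM rests on 1 UMI.

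The NF-κB list and the chemokine Cxcl10 each had another order. Against CS the NF-κB list had medians of 2.21, 1.47, 2.61, 1.58, 3.28 and 2.84 in NEVLP2 and 1.73, 1.38, 1.96, 1.21, 2.53 and 1.93 in NEVLPcty, so both perfused libraries were above CS. In the same order of libraries, Cxcl10 was at 141, 72.3, 824 and 70.3 CPM in the Kupffer group and 253, 244, 2008 and 228 in the endothelial group. NEVLP2 was the high library in both groups, and NEVLPcty was close to CS. Pmepa1 in the NK group was at 0.724, 1.01, 34.3 and 270 CPM, of which the first 2 rest on 1 UMI each, and Smad7 there at 55, 92.7, 113 and 377. In the Kupffer group Smad7 was at 84.3, 95.5, 44 and 130 CPM, so NEVLP2 was the lowest library and NEVLPcty the highest.

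**Figure D5:**
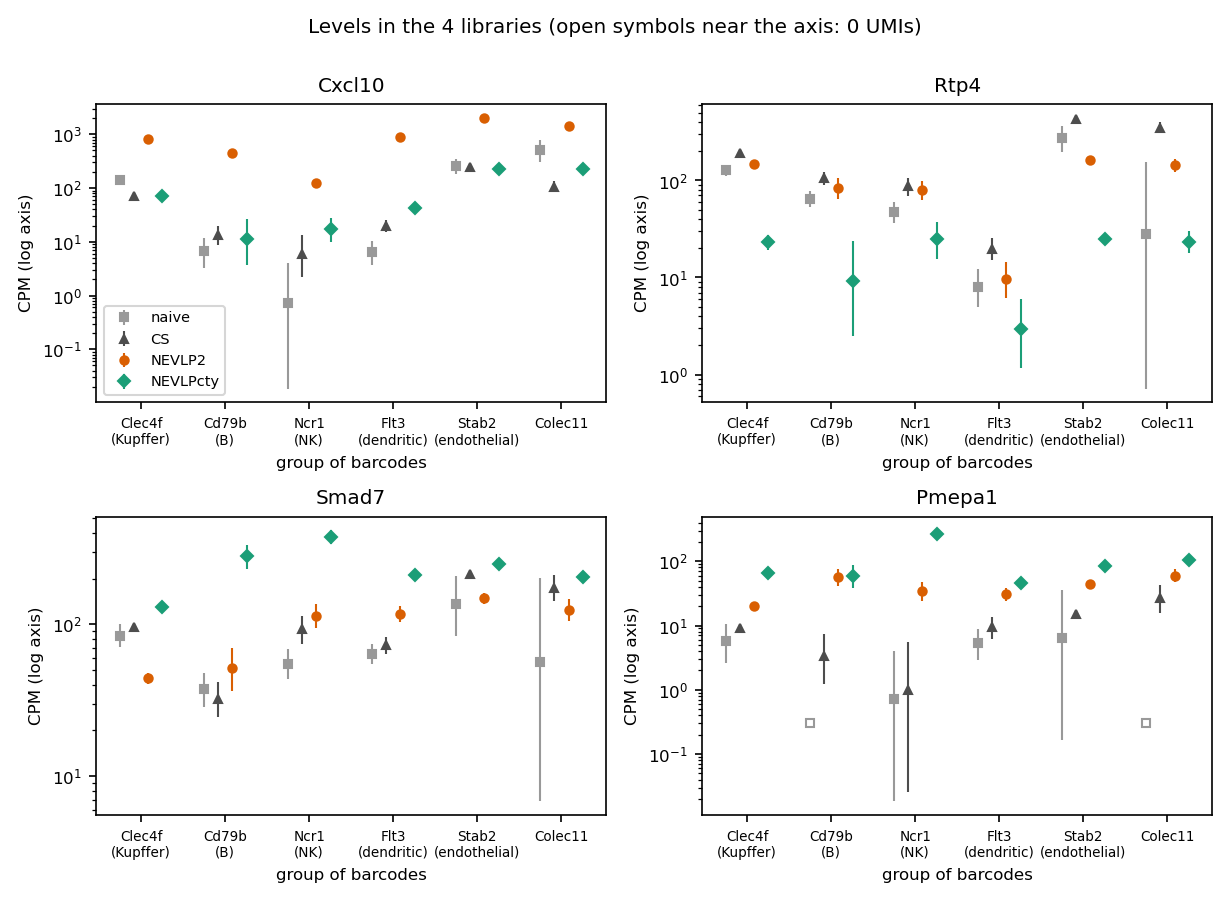
CPM (log axis) of Cxcl10, Rtp4, Smad7 and Pmepa1 in the 6 groups of the naive, CS, NEVLP2 and NEVLPcty libraries, with exact 95% Poisson intervals and open symbols for 0 UMIs. Rtp4 is lowest in NEVLPcty in all 6 groups (the naive Colec11 point is 1 UMI), and Cxcl10 of the Kupffer group is at 824 CPM in NEVLP2 and between 70.3 and 141 CPM in the other 3 libraries.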

How the data were processed

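The data are deposited matrices of whole UMI counts per gene and barcode, 22250 features under 22118 symbols, and features with the same symbol were summed. Cell Ranger 2.1.1 is named in the submitters' processing notes and version 6.0.0 per the file headers. Genome build: not given in the sources used here. Raw counts were summed per group and library and divided by the group total (CPM). Ratios have exact conditional binomial intervals, levels exact Poisson and shares exact Clopper-Pearson intervals. A gene at 0 in 1 library was set to 3 counts. Doublets were not removed beyond the barcodes with 2 group markers, and Scrublet scores (scanpy 1.11.5) were used as an alternative. The members, lists and rules were chosen with earlier results of these data known. Named were the first 15 shared genes in each direction by median log2 ratio, the first 4 particular genes per group and direction by their gap to the nearest group, the first 6 genes with opposite signs, fixed TGF-β and IL-10 genes, and the top 2 members of the other lists, of which the text gives part. List members named beyond these were chosen after their values were seen. Genes with unnamed symbols and ribosomal protein and mitochondrial genes were not named. Of 343 listed genes 335 were among the features. Promoters came from RefSeq GRCr8. Of the other settings tried, 2 were chosen after the data were seen. Some genes named by these rules are not reported here. The script was tested on simulated counts. Scipy 1.17.1 gave the intervals, and sums used pandas 2.3.3 with numpy 2.4.6 (Python 3.11.15). Figures were drawn with matplotlib 3.10.9.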

Additional observations from a re-analysis of the deposited data

Results flagged for a closer look

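Some genes had log2 ratios (NEVLPcty over NEVLP2) of opposite sign in 2 groups, each at least 2-fold with counting intervals apart. With 1 library per condition, the difference was not tested for any of them. Many rest on 1 barcode.

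Ccl12, a monocyte chemokine, differed by 10.33 between the Colec11 group (3.23, 195 of 200 UMIs of NEVLPcty in 1 barcode) and the dendritic group (-7.10, 390 of 405 UMIs of NEVLP2 in 1 barcode). The dendritic group of NEVLPcty had 0 UMIs, set to 3 counts, so its ratio and this difference are bounds. Ccl22, a CCR4 ligand, differed by 7.95 between the Colec11 group (4.44, 306 of 324 UMIs from 1 barcode) and the endothelial group (-3.51). Epcam, an epithelial adhesion molecule, differed by 8.16 between the endothelial group (2.67, 78 of 138 UMIs in 1 barcode) and the Kupffer group (-5.49, interval -8.54 to -3.62, 78 of 199). Klrd1, the NK receptor chain CD94, differed by 9.18 between the endothelial group (2.84, interval 0.93 to 5.92, 2 UMIs in NEVLP2) and the Colec11 group (-6.34, interval -11.68 to -3.77, 1 UMI in NEVLPcty), and Gzma, a granzyme, by 7.42 between the same groups (1.13 and -6.29). The NK list in the Colec11 group was at 842 and 9.91 CPM, and its part in both genes was not tested.

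S100a4, a calcium-binding protein, differed by 7.33 between the B group (5.89, interval 3.99 to 8.97, 39 of 68 UMIs in 1 barcode) and the NK group (-1.44). Egr2, an early response gene, differed by 7.02 between the B group (4.19, 30 of 52 UMIs in 1 barcode) and the Kupffer group (-2.84). Hbb, β-globin, differed by 6.28 between the endothelial group (4.50, 641 of 687 UMIs in 1 barcode) and the Kupffer group (-1.78). The Kupffer ratio turned to 0.35 without the top barcode of each library and 0.98 at 2 or more marker UMIs, and the endothelial ratio was 0.80 without the top barcode, so the signs of the 2 groups were then not opposite. Slc40a1, the iron exporter ferroportin, differed by 3.56 between the endothelial group (1.49) and the NK group (-2.07, 19 UMIs in NEVLP2).

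Tgfbr2, the TGF-β receptor chain, differed by 2.48 between the NK group (1.07) and the dendritic group (-1.41). Tgfbi, a TGF-β-induced matrix protein, differed by 2.35 between the dendritic group (1.15, and -1.15 without barcodes holding an endothelial UMI) and the B group (-1.19, on 16 and 4 UMIs).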

How the results depend on the processing

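No paired analysis was possible because each condition is 1 library. Of the 318 named values at least 2-fold, the direction was the same in 223 of 232 with a value at 2 or more marker UMIs, 257 of 264 without barcodes holding an endothelial UMI, 278 of 280 without the top barcode of each gene and 312 of 312 with at most 5% hepatocyte UMIs. The counts of genes moved with depth. At a minimum of 50 UMIs per gene, 326 genes of the B group (835 otherwise), 586 of the NK group (1159), 807 of the dendritic group (1379) and 739 of the Colec11 group (1301) were at least 2-fold, and after thinning to 1000 UMIs 218, 493, 308 and 733. Without barcodes holding an endothelial UMI the dendritic count was 872. The 13 shared higher genes became 6 at 2 or more marker UMIs, 36 with barcodes of 2 groups assigned, 21 without the highest Scrublet scores, 7 with median gene scaling, 3 at 50 UMIs, 0 after thinning, 5 without endothelial UMIs and 32 over 4 of 5 groups without the Colec11 group. The 61 shared lower genes became 14 at 2 or more marker UMIs, 29 at 50 UMIs, 17 after thinning, 36 without endothelial UMIs, 102 by mean CPM per barcode and 96 over 4 of 5 groups. The 216 particular genes became 131 (2 or more marker UMIs), 34 (thinned) and 137 (without endothelial UMIs), and mean CPM per barcode gives no interval for them. The cause of these moves was not tested, beyond the fewer genes or UMIs that some alternatives leave.

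Values that changed sign, all log2 ratios, were these. At 2 or more marker UMIs, the chemokine list was at 0.44 in the B group and the red cell list at 0.98 in the Kupffer group, Dhrs3 at -0.12 and Hbb at 0.98 in the Kupffer group, Clec10a at 2.78, Il1rn at 2.62 and Cebpd at 0.40 in the B group, Cebpd at 0.25 in the NK group, Vegfa at -0.35 in the dendritic group, and Il4i1 at 0.075 and Basp1 at 0.19 in the endothelial group. Without barcodes holding an endothelial UMI, the extracellular matrix median in the Kupffer group was -0.079, with Dhrs3 at -0.88, Gzma at 0.68 and Hspb1 at -0.16, Hist1h1d at -1.13 and Tgfbi at -1.15 in the dendritic group, and Icam1 at 0.083 and Vegfa at -2.20 in the B group. Without the top barcode, the red cell list was at 0.35 and Hbb at 0.35 in the Kupffer group and Hspb1 at -2.33 in the dendritic group. By mean CPM per barcode, Cd2 was at -0.15 and Tgfbi at 0.17 in the B group, Hbb at 0.46 in the Colec11 group and Alas2 at -0.38 in the endothelial group. Without the highest Scrublet scores, Hspb1 was at -1.22 in the dendritic group and Fn1 at 0.51 in the Colec11 group, and with barcodes of 2 groups assigned, Cdk1 was at -0.052 in the Colec11 group.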

Other observations

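Cell cycle genes were higher in NEVLPcty in some groups and lower in others. Of the list's members compared, 4 of 10 were at least 2-fold higher in NEVLPcty and 0 lower in the endothelial group (median 0.90), 3 of 7 and 0 in the Colec11 group (0.87) and 4 of 10 and 0 in the Kupffer group (0.53), while 0 of 12 were higher and 4 lower in the NK group (-0.42) and 0 of 8 and 4 in the B group (-0.82). Mki67, the proliferation antigen, had log2 ratios of 2.92 in the Kupffer group, 0.89 in the endothelial group and -2.86 in the B group, where 64 of 109 UMIs of the Kupffer group of NEVLPcty and 33 of 38 of the B group of NEVLP2 came from 1 barcode each. In the B group 6 of 13 members of the unfolded protein and integrated stress list were at least 2-fold lower and 0 higher, beside a plasma cell list at 17316 CPM in NEVLP2 and 4512 in NEVLPcty. Of the genes of MHC class I and peptide loading, 1 of 11 was at least 2-fold lower in the endothelial group and 1 of 10 in the Colec11 group, and 0 were higher or lower in the other 4 groups. Of the oxidative phosphorylation genes, 0 were higher or lower by 2-fold in the 6 groups, with 12 or 13 compared in each.

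The glucocorticoid list, which bears on the hydrocortisone in both perfusates, had 1 of 14 members at least 2-fold higher and 0 lower in the Kupffer group (median 0.41) and 2 higher and 5 lower of 10 in the B group (-0.95). Mt2A, a metallothionein on that list, had log2 ratios of -3.40 in the B group and -0.39 in the Kupffer group, and hepatocyte barcodes were at -1.37. The hepatocyte list of the B group was at 6858 and 881 CPM, and its part in this was not tested.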
